A study of Homo sapiens with 18 samples.

Results

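Acini of wild-type MCF-10A.B2 cells that received a HER2 dimerizer together with TGF-β1 were compared with WT control acini, 3 libraries against 3, which are 6 of the 18 libraries of the series. The 6 libraries were taken by their titles. MCF-10A.B2 is a human mammary epithelial line, not derived from a tumour, with a transgene that joins an outer part of NGFR to the HER2 kinase, so that a bivalent drug (B/B homodimerizer) pairs and switches on the kinase. Counts assigned to ERBB2 and NGFR may therefore mix the cells' own transcripts with those of the transgene. All groups carried this transgene and were grown as acini for 21 days in growth factor reduced basement membrane gel. The first 7 days were with EGF, and for the 14 days that followed EGF gave way to 1 of 3 treatments. Jointly treated acini (WT) received the dimerizer with TGF-β1, dimerizer-treated acini (WT) received the dimerizer alone, and control acini (WT) received ethanol. TGF-β1 without the dimerizer is not among these groups. JNKKO cells of the same line, in which JNK was knocked out, were treated in the same 3 ways, and their jointly treated and control acini serve below as a second test of the same treatment. Nothing in the labels ties the 3 libraries of a group to separate cultures, and p-values therefore measure no more than the scatter of these libraries, which can be technical. Each genotype is 1 line, and whether the JNKKO cells are 1 clone is not stated.

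HER2 is a receptor tyrosine kinase whose pairing feeds the RAS and ERK cascade, which drives cyclins and, in turn, its own inhibitors of the Sprouty, SPRED and dual-specificity phosphatase families. TGF-β1 binds the receptor pair TGFBR2 and TGFBR1, which phosphorylate SMAD2 and SMAD3, and these enter the nucleus with SMAD4. In mammary epithelium TGF-β1 is known to hold back the cell cycle, to raise extracellular matrix genes and, over days, to move cells along the epithelial-mesenchymal transition (EMT), the exchange of junctional for mesenchymal genes. SNAI and ZEB factors, which repress epithelial genes through E-box sequences, are among its known targets. The joint treatment thus carries a mitogenic and a growth-restraining signal at once, and the dimerizer alone carries the first of them.

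The libraries held 24243537 to 34499651 expected counts, and levels are given as CPM, counts relative to library size after scaling by TMM factors. PCSK1N, a proprotein convertase inhibitor, told the genotypes apart at 16, 15.5 and 17.7 CPM in the jointly treated WT libraries and 0.0701, 0 and 0 CPM in the jointly treated JNKKO libraries. The jointly treated WT replicate 3, whose genotype tag says JNK knockout against its title, had 17.7 CPM and so lay with the WT libraries in this gene. PCSK1N was chosen with earlier results of these data known, so its level does not settle whether the tag or the title is right. Transcripts of the targeted genes were still counted. MAPK8 (JNK1) had 26.7, 25.5 and 27.4 CPM in jointly treated JNKKO acini, against 31.6, 35.1 and 33 CPM in jointly treated WT acini. MAPK9 (JNK2) had 51, 53.9 and 52.2 CPM in the first and 64.7, 68.3 and 65.4 CPM in the second of these groups. Which part of either gene was deleted is not stated, so these levels do not check the knockout. Jointly treated WT replicate 1 stood somewhat apart from its group, with a chi-square per gene of 9.49 and 12.1 against replicates 2 and 3, which were at 3.38 from each other; other WT pairs lay between 2.78 and 5.86. Transcripts of the mitochondrial genome took 9.19% ± 0.641 of counts in jointly treated, 9% ± 0.128 in dimerizer-treated and 15.2% ± 0.131 in control acini (SD, n = 3 each). In these bulk libraries fewer cells of a type and less RNA per cell cannot be told apart.

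With the joint treatment, 10452 of 16911 genes tested (61.8%) passed the threshold of 0.05 for the adjusted p of edgeR's quasi-likelihood test. Of these, 5300 (31.3%) were higher and 5152 (30.5%) lower than in control, and the median log2 difference over all genes was -0.02. At least 2-fold, 1448 genes (8.56%) were higher and 1034 (6.11%) lower. Without replicate 3, 9926 genes passed, of which 9561 were the same genes in the same direction (91.5% of the calls with all 6 libraries). With the deposited TPM values in place of scaled counts, 77.8% of the called genes were higher, against 50.7% here, and the median of all genes stood at 0.17 with a pseudocount of 1, so small differences are relative to the scaling. The dimerizer alone called 5125 genes higher (30.3%) and 4326 lower (25.6%).

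The 1907 genes that passed at 2-fold with the joint treatment, and were also called in the same direction against dimerizer-treated acini, were divided by what the dimerizer alone did. Called in the opposite direction with dimerizer alone were 126 genes that were higher with the joint treatment (0.745% of those tested) and 178 that were lower (1.05%). These are called opposite genes below. Not called with dimerizer alone were 533 higher (3.15%) and 356 lower genes (2.11%), and the remaining 714 were called alike under both treatments. A missed call does not show that the dimerizer did nothing, so its log2 difference is given with its 95% interval. The 3 comparisons share libraries, and these counts are what the rule gives, with no test of their own. Just inside the 2-fold limit among opposite genes at 5 CPM were AQP9 at a log2 difference of 1.006 and RP11-420L9.5 at 1.008. Just outside were TES at 0.993 and SPEF2 at -0.999.

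The opposite genes that were higher and named by the rule included transport, actin and matrix genes. SLC7A8, which encodes a neutral amino acid transporter (chr14:23125295-23183674, minus strand, hg38), had 283, 293 and 270.1 CPM in jointly treated acini, 11.5, 11.9 and 12.5 CPM in dimerizer-treated acini and 55, 54 and 57.5 CPM in control acini. The 3 groups did not overlap, with control between the treatments, and the log2 difference was 2.35 ± 0.05 (SE, edgeR adjusted p = 2.27e-22) with the joint treatment and -2.21 ± 0.07 (SE, edgeR adjusted p = 2.16e-19) with dimerizer alone. WIPF1, a partner of WASP proteins in actin assembly (chr2:174559572-174682916, minus strand), had 67.5, 77.5 and 70.6 CPM in jointly treated acini, 3.35, 2.98 and 3.29 CPM in dimerizer-treated acini and 12.2, 9.94 and 11.2 CPM in control acini. It too was lowest with dimerizer alone, at log2 differences of 2.69 ± 0.07 (SE, edgeR adjusted p = 8.94e-23) with the joint treatment and -1.79 ± 0.10 (SE, edgeR adjusted p = 9.44e-15) with dimerizer alone. AOX1, an aldehyde oxidase (chr2:200585868-200677064, plus strand), had 34.9, 40.6 and 39.9 CPM in jointly treated acini, 1.73, 1.63 and 1.54 CPM in dimerizer-treated acini and 12.3, 11.4 and 12.4 CPM in control acini. Its log2 difference was 1.68 ± 0.09 (SE, edgeR adjusted p = 7.73e-13) with the joint treatment and -2.88 ± 0.15 (SE, edgeR adjusted p = 6.36e-13) with dimerizer alone. TAGLN, the actin-binding transgelin, averaged 10.3 ± 1.36 CPM in jointly treated, 1 ± 0.19 CPM in dimerizer-treated and 2.95 ± 0.674 CPM in control acini (SD, n = 3 each), and its log2 differences were 1.81 with the joint treatment and -1.55 with dimerizer alone. CUX2, a homeobox factor, averaged 33.6 ± 2.27 CPM in jointly treated, 0.256 ± 0.078 CPM in dimerizer-treated and 0.913 ± 0.276 CPM in control acini, so that it was low in both other groups. HS3ST2, which adds sulfate to heparan sulfate chains, averaged 5.69 ± 0.731 CPM in jointly treated, 0.06 ± 0.0281 CPM in dimerizer-treated and 0.325 ± 0.117 CPM in control acini.

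Fibronectin and periostin, both secreted into the matrix, had the largest joint rises of the 8 opposite genes named, with a fall under dimerizer alone that rested on fewer libraries. FN1 had 3670, 4894 and 4471 CPM in jointly treated acini, 7.04, 6.42 and 5.53 CPM in dimerizer-treated acini and 26.6, 22 and 6.65 CPM in control acini. Its log2 difference with the joint treatment was 7.87 ± 0.43 (SE, edgeR adjusted p = 2.05e-09). With dimerizer alone it was -1.55 ± 0.51 (SE, edgeR adjusted p = 0.0194), and control replicate 3 lay inside the dimerizer-treated range. POSTN had 329.8, 397 and 325 CPM in jointly treated acini, 0.432, 0.467 and 0.393 CPM in dimerizer-treated acini and 4.41, 2.81 and 0.47 CPM in control acini. It differed by 7.07 ± 0.31 (SE, edgeR adjusted p = 1.8e-10) with the joint treatment and by -2.58 ± 0.83 (SE, edgeR adjusted p = 0.0178) with dimerizer alone, with control replicate 3 just above the dimerizer-treated libraries. The fall of FN1 with dimerizer alone was no longer called without control replicate 1 (adjusted p = 0.0958), control replicate 2 (adjusted p = 0.0608) or dimerizer-treated replicate 3 (adjusted p = 0.0614, edgeR). That of POSTN was not called without control replicate 1 (adjusted p = 0.101) or dimerizer-treated replicate 3 (adjusted p = 0.0525, edgeR). The joint rise of both passed in all of these fits.

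Opposite genes that were lower with the joint treatment included basal keratin, calcium-binding and ligand genes that the dimerizer alone raised. KRT15, a keratin of basal cells in stratified epithelia (chr17:41513743-41522529, minus strand), had 114, 78.8 and 87.2 CPM in jointly treated acini, 5247, 5333 and 5638 CPM in dimerizer-treated acini and 894, 810.2 and 874 CPM in control acini. The groups lay far apart, with the dimerizer-treated libraries highest, and its log2 differences were -3.20 ± 0.13 (SE, edgeR adjusted p = 5.56e-11) with the joint treatment and 2.65 ± 0.12 (SE, edgeR adjusted p = 4.88e-10) with dimerizer alone. S100A9 (chr1:153357854-153361027, plus strand), which pairs with S100A8 as calprotectin, had 12.4, 11 and 14.4 CPM in jointly treated acini, 293, 317 and 286 CPM in dimerizer-treated acini and 90.3, 109.7 and 123 CPM in control acini. S100A8 had 10.8, 10.3 and 11.4 CPM in jointly treated acini, 124, 131 and 129 CPM in dimerizer-treated acini and 34.9, 43.9 and 52.1 CPM in control acini. Both followed the same order, and their log2 differences with the joint treatment were -3.09 ± 0.15 (SE, edgeR adjusted p = 3.67e-10) for S100A9 and -2.001 ± 0.15 (SE, edgeR adjusted p = 4.57e-08) for S100A8. With dimerizer alone S100A9 differed by 1.48 ± 0.12 and S100A8 by 1.56 ± 0.12 (SE). CALML3, a calmodulin-like protein of epithelial cells (chr10:5524009-5526771, plus strand), had 1.81, 1.23 and 1.54 CPM in jointly treated acini, 22.7, 24.4 and 23.6 CPM in dimerizer-treated acini and 6.86, 9.13 and 7.32 CPM in control acini. Its log2 differences were -2.34 ± 0.14 (SE, edgeR adjusted p = 2.14e-14) with the joint treatment and 1.60 ± 0.10 (SE, edgeR adjusted p = 4.02e-14) with dimerizer alone.

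Smaller falls of the same kind were found in an ERBB ligand and in enzymes and channels. HBEGF, a ligand of EGFR, averaged 2.41 ± 0.398 CPM in jointly treated, 13.8 ± 1.12 CPM in dimerizer-treated and 5.47 ± 0.238 CPM in control acini, and its log2 differences were -1.17 with the joint treatment and 1.33 with dimerizer alone. CA2 (carbonic anhydrase) averaged 2.12 ± 0.356 CPM in jointly treated, 26.4 ± 1.04 CPM in dimerizer-treated and 5.98 ± 0.885 CPM in control acini. GLS2, a glutaminase, averaged 3.78 ± 0.801 CPM in jointly treated, 24.6 ± 0.622 CPM in dimerizer-treated and 9.25 ± 1.22 CPM in control acini. The calcium release channel RYR2 averaged 3.34 ± 0.152 CPM in jointly treated, 22.8 ± 1.3 CPM in dimerizer-treated and 9.23 ± 0.331 CPM in control acini. In each of these 4 genes the groups did not overlap and control lay between the treatments. TREM2, a receptor best known in myeloid cells, and PLA2G4F, a cytosolic phospholipase, were also among the 10 largest joint falls, at log2 -4.85 and -4.82, with rises of 0.58 and 0.40 under dimerizer alone. On the log2(TPM) scale the joint falls of RYR2, GLS2 and HBEGF stayed called and were under 2-fold, and that of CA2 was under 2-fold with a pseudocount of 1. Of the 16 opposite genes named first, 8 met every condition of the rule in each of the 17 other settings, namely SLC7A8, WIPF1, AOX1, TAGLN, KRT15, CALML3, S100A8 and S100A9.

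**Figure D1:**
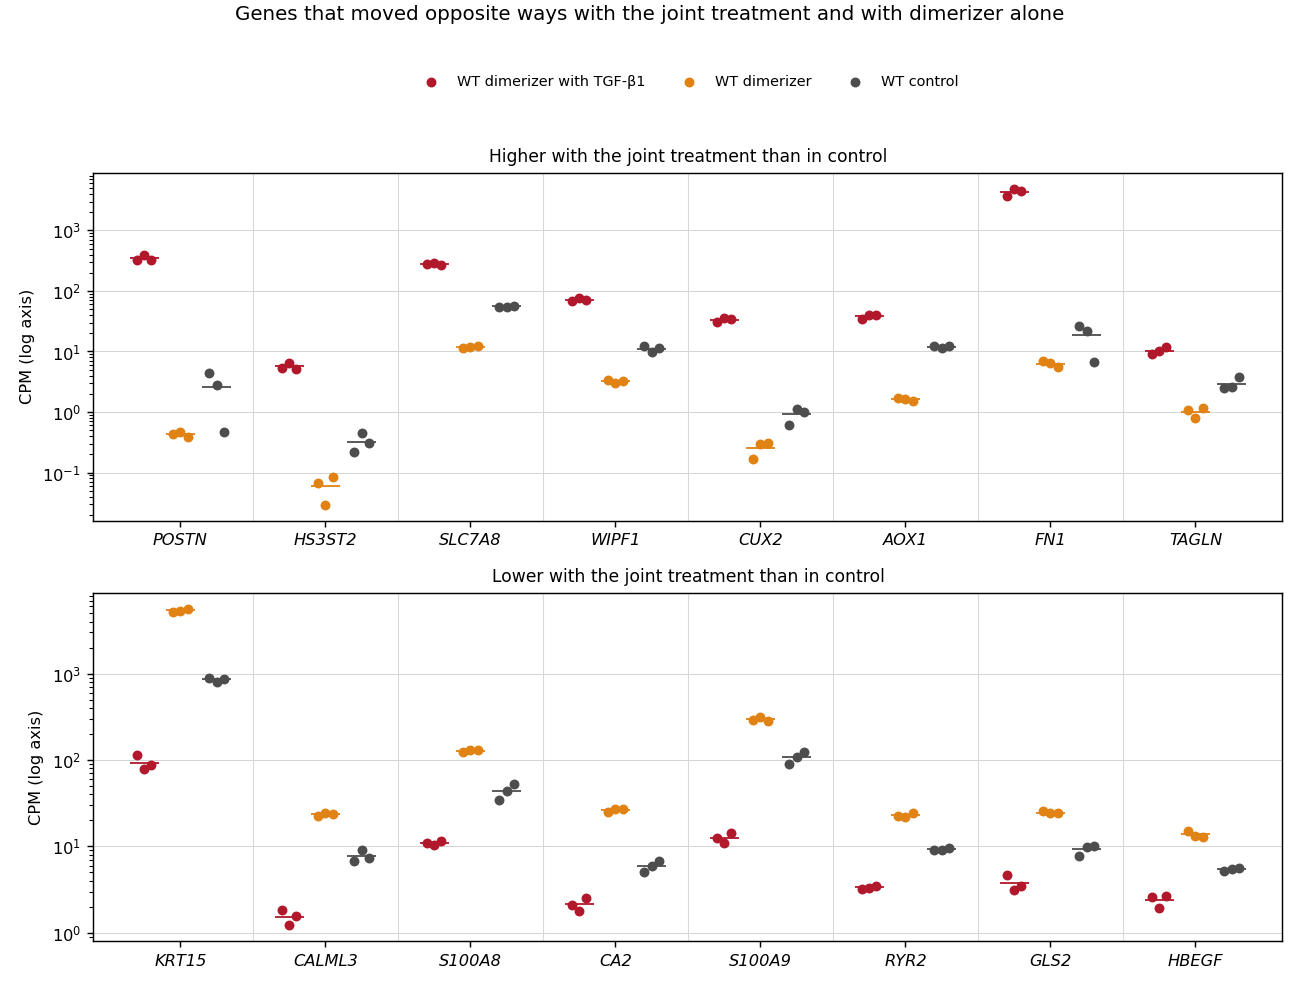
CPM in each of 3 libraries (points, log axis) with the group mean (bar) for the 8 opposite genes per direction named by the rule, in WT dimerizer with TGF-β1, WT dimerizer and WT control. The control libraries lie between the treatments except in FN1, where control replicate 3 (6.65 CPM) lies within the dimerizer-treated range of 5.53 to 7.04 CPM.

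Genes that the joint treatment raised and that were not called with dimerizer alone included genes near silence in the other groups. TGM2, a transglutaminase that crosslinks matrix and a known TGF-β target (chr20:38127387-38166578, minus strand), had 368, 503 and 541 CPM in jointly treated acini, 1.83, 1.4 and 1.35 CPM in dimerizer-treated acini and 2.48, 2.45 and 1.34 CPM in control acini. Its log2 difference was 7.80 ± 0.23 (SE, edgeR adjusted p = 2.1e-12) with the joint treatment and -0.47 (95% interval -1.50 to 0.56, edgeR adjusted p = 0.422) with dimerizer alone. AMTN (amelotin), a secreted protein of the enamel organ, had 70.5, 82.6 and 76.7 CPM in jointly treated acini, 0.232, 0.0875 and 0.0562 CPM in dimerizer-treated acini and 0.286, 0.129 and 0.0672 CPM in control acini. The dimerizer-treated and control libraries overlapped, and the joint log2 difference was 8.84 ± 0.20 (SE, edgeR adjusted p = 3.16e-18). KCNJ15, an inwardly rectifying potassium channel, averaged 77.3 ± 6.29 CPM in jointly treated, 0.326 ± 0.0885 CPM in dimerizer-treated and 0.258 ± 0.107 CPM in control acini, with a log2 difference of 8.19 ± 0.13 (SE, edgeR adjusted p = 9.73e-27) and, with dimerizer alone, 0.34 (95% interval -0.50 to 1.17, edgeR adjusted p = 0.5). KANK4, a talin-linked cortical protein, averaged 68.5 ± 9.37 CPM in jointly treated, 0.326 ± 0.119 CPM in dimerizer-treated and 0.357 ± 0.0474 CPM in control acini. AMPH, an adaptor in membrane bending, averaged 21.9 ± 3.59 CPM in jointly treated, 0.285 ± 0.099 CPM in dimerizer-treated and 0.151 ± 0.034 CPM in control acini. The integrin β chain ITGB3, a fibronectin and vitronectin receptor subunit, averaged 6 ± 1.58 CPM in jointly treated, 0.0301 ± 0.00269 CPM in dimerizer-treated and 0.0442 ± 0.0515 CPM in control acini, with a log2 difference of 6.98 ± 0.43 (SE, edgeR adjusted p = 8.79e-13). With control libraries at 0.0318, 0 and 0.101 CPM the size of this difference is uncertain. It was 4.45 on log2(TPM + 0.1) and 1.74 on log2(TPM + 1).

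For 2 other genes of this group with few control counts, a ratio of counts is given in place of a fitted fold. CGB8, a chorionic gonadotropin β gene, had 1896 counts over the jointly treated libraries and 3 counts over the control libraries, a ratio of 610 (95% interval 208 to 2958, which covers counting error only). The CGB genes are near-identical copies among which reads may be split, so this value is uncertain. The growth factor gene IGF2 had 645 counts over jointly treated and 2 over control libraries, a ratio of 311 (95% interval 85.8 to 2574); it overlaps the readthrough gene INS-IGF2, so its counts are uncertain too. Over all 533 higher genes the median log2 difference was 1.92 with the joint treatment and 0.07 with dimerizer alone. The 95% interval of the dimerizer alone stayed within 2-fold for 235 of the 533.

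The named falls not called with dimerizer alone included DSG1, SBSN, KRT1 and SPRR1B, members of the list of desmosome and squamous genes. DSG1, the desmoglein of differentiated epidermis (chr18:31318089-31357029, plus strand), had 0.121, 0.166 and 0.216 CPM in jointly treated acini, 9.3, 8.4 and 10 CPM in dimerizer-treated acini and 4.03, 4.81 and 10.5 CPM in control acini. Its log2 difference was -5.23 ± 0.55 (SE, edgeR adjusted p = 1.62e-06) with the joint treatment and 0.52 (95% interval -0.08 to 1.13, edgeR adjusted p = 0.133) with dimerizer alone. SBSN (suprabasin) had 0.514, 0.564 and 0.463 CPM in jointly treated acini, 12.9, 12 and 12.9 CPM in dimerizer-treated acini and 9.02, 7.97 and 21.7 CPM in control acini. All jointly treated libraries lay below 1 CPM, and the log2 difference was -4.64 ± 0.51 (SE, edgeR adjusted p = 3.25e-06). KRT1, a keratin of suprabasal layers, averaged 0.633 ± 0.201 CPM in jointly treated, 8.5 ± 0.1 CPM in dimerizer-treated and 10.3 ± 2.35 CPM in control acini, and differed by -4.01 ± 0.38 (SE, edgeR adjusted p = 7.18e-07) with the joint treatment and by -0.28 (95% interval -0.79 to 0.23, edgeR adjusted p = 0.334) with dimerizer alone. SPRR1B, a cornified envelope precursor, had 1.39, 1.23 and 1.26 CPM in jointly treated acini, 18.2, 18.4 and 18.1 CPM in dimerizer-treated acini and 9.71, 11.3 and 21.1 CPM in control acini. It differed by -3.43 ± 0.35 (SE, edgeR adjusted p = 1.36e-06). A2ML1, a protease inhibitor of cornifying epithelium, had 0.0907, 0.199 and 0.0926 CPM in jointly treated acini, 10.3, 9.57 and 8.79 CPM in dimerizer-treated acini and 7.84, 7.97 and 18.8 CPM in control acini. Control replicate 3 was the highest control library in A2ML1, DSG1, SBSN and SPRR1B, and it was the lowest in FN1 and POSTN. Without it the dimerizer alone was called higher for DSG1 (log2 1.06), SBSN (0.57) and SPRR1B (0.80), and the joint falls stayed called at -4.69, -4.04 and -3.01.

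CAMK2B, a calcium/calmodulin kinase subunit (chr7:44217150-44334577, minus strand), had 0.181, 0.365 and 0.679 CPM in jointly treated acini, 34.2, 43.8 and 35.5 CPM in dimerizer-treated acini and 27.3, 29.5 and 30.6 CPM in control acini. It differed by -6.14 ± 0.33 (SE, edgeR adjusted p = 1.41e-09) with the joint treatment. With dimerizer alone it differed by 0.38 (95% interval 0.04 to 0.72, edgeR adjusted p = 0.0545), and this became a called rise in 4 of 17 other settings, among them without dimerizer-treated replicate 1 (log2 0.44, edgeR adjusted p = 0.049). FGFBP1, a carrier that releases fibroblast growth factors from the matrix, averaged 0.664 ± 0.232 CPM in jointly treated, 13.8 ± 1.92 CPM in dimerizer-treated and 18.2 ± 3.98 CPM in control acini. Its dimerizer difference of -0.40 ± 0.17 (SE) was called in 3 of 17 other settings, among them without control replicate 1 (log2 -0.55) or dimerizer-treated replicate 2 (log2 -0.50). The drug-metabolising enzyme CYP3A5 averaged 0.507 ± 0.193 CPM in jointly treated, 7.18 ± 0.498 CPM in dimerizer-treated and 6.48 ± 0.443 CPM in control acini, with a log2 difference of -3.65 ± 0.16 (SE, edgeR adjusted p = 1.32e-17). Over all 356 lower genes the median log2 difference was -1.55 with the joint treatment and 0.03 with dimerizer alone, whose 95% interval stayed within 2-fold for 234 of them. Of the 16 genes named as not called with dimerizer alone, 6 met every condition of the rule in each of the 17 other settings. With no filter, dimerizer alone was called for TGM2 (log2 -0.47), A2ML1 (-0.26) and KRT1 (-0.28). It was also called for AMPH (0.48) on log2(TPM + 0.1) and CYP3A5 (0.21) on log2(TPM + 1).

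**Figure D2:**
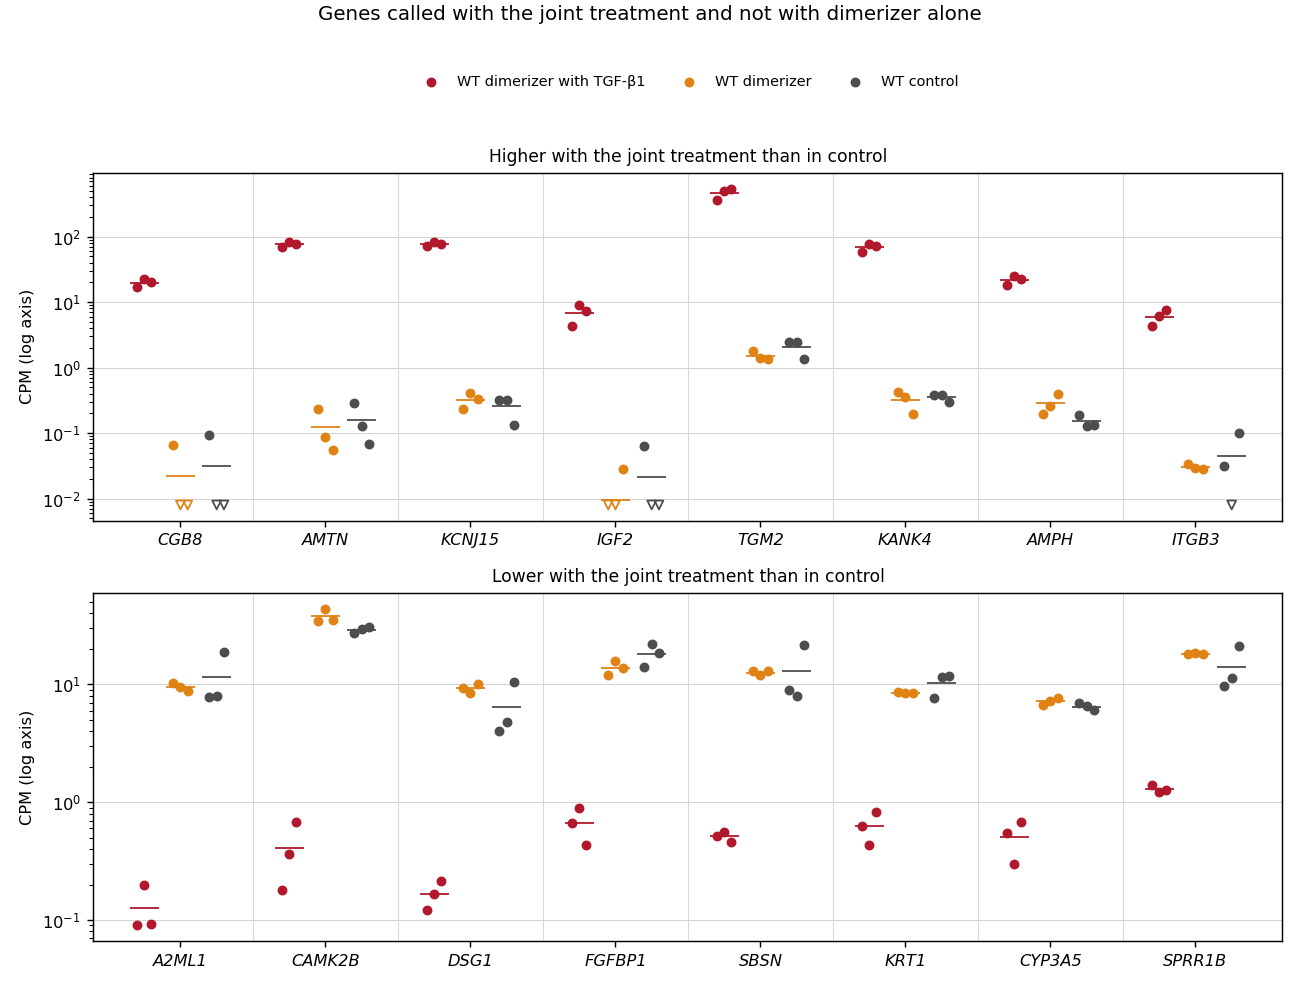
CPM in each of 3 libraries (points, log axis) with the group mean (bar) for the 8 genes per direction named among those called with the joint treatment and not with dimerizer alone; open triangles at the foot mark libraries at 0. Jointly treated libraries lie apart from both other groups in all 16 genes, for example TGM2 at 368 to 541 CPM and DSG1 at 0.121 to 0.216 CPM.

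The promoters of these genes were searched for 4 short motifs on both strands, 250 bases before to 50 bases after the start of each gene in the RefSeq table of GRCh38.p14, which matched 7584 of the 16911 genes tested. The E-box CACCTG, the form bound by SNAI and ZEB factors, was in 18.8% of all these promoters. It was in 33 of 79 promoters of opposite genes lower with the joint treatment (41.8%) and in 50 of 133 of the lower genes not called with dimerizer alone (37.6%). By contrast it was in 16 of 81 promoters of genes that were lower under both treatments (19.8%). Among genes that were higher it was in 10 of 43 opposite promoters (23.3%), 41 of 187 not called with dimerizer alone (21.9%) and 50 of 251 called alike (19.9%). The median share of G and C was 67.0%, 61.3% and 62.3% in the lower groups, in that order, and 65.3% over all promoters. These shares are a description with no test, and a match is not evidence of binding.

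The other motifs were counted likewise. TGANTCA, the AP-1 element, was in 4.98% of all promoters, in 10.1% of opposite lower, 12% of lower genes not called with dimerizer alone and 6.17% of those lower under both, and in 6.98%, 9.09% and 9.16% of the higher genes in the same order. The SMAD element CAGACA was in 12.2% of all and in 6.33%, 18% and 6.17% of the lower groups, and in 18.6%, 18.7% and 13.5% of the higher groups. CATTCC, bound by TEAD factors, was in 10.7% of all, in 8.86%, 9.02% and 16% of the lower and in 16.3%, 17.1% and 11.6% of the higher groups. Each motif was counted on its own, and matches of different motifs may overlap. Of the factors that bind CACCTG, SNAI2 averaged 244 ± 25.9 CPM in jointly treated, 80.1 ± 0.879 CPM in dimerizer-treated and 164 ± 1.66 CPM in control acini, with log2 differences of 0.57 with the joint treatment and -1.03 with dimerizer alone. SNAI1 averaged 1.03 ± 0.447 CPM in jointly treated, 0.0479 ± 0.0443 CPM in dimerizer-treated and 0.076 ± 0.0493 CPM in control acini, and differed by 3.69 ± 0.52 (SE, edgeR adjusted p = 4.85e-07) with the joint treatment. ZEB1 averaged 7.96 ± 0.97 CPM in jointly treated, 9.27 ± 0.689 CPM in dimerizer-treated and 7 ± 0.377 CPM in control acini and did not pass with the joint treatment, at 0.19 (95% interval -0.003 to 0.37, edgeR adjusted p = 0.0817), and ZEB2 was lower, at log2 -1.23. SNAI2 and ZEB1 were added after their values were seen.

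The promoters below show where the E-box lies in 4 genes that were lower with the joint treatment, beside 2 genes that were higher and hold none. Capitals mark CACCTG or its reverse complement, and all sequences run 5′ to 3′ on the strand of the gene. They were chosen after the matches were counted, the lower ones for having a match and the higher ones for having none. The match did not follow the direction in every named gene, since the promoters of KCNJ15, AOX1 and DUSP8, which were higher, hold it, and those of TREM2, FGFBP1, SBSN, RYR2 and NOTCH3, which were lower, are among those that do not. The stretch of CALML3 lies at chr10:5524711-5525010, plus strand, S100A9 at chr1:153357604-153357903, plus strand, CAMK2B at chr7:44325545-44325844, minus strand, SPRR1B at chr1:153030953-153031252, plus strand, POSTN at chr13:37598719-37599018, minus strand, and FN1 at chr2:215436019-215436318, minus strand. The RefSeq starts differ from the gene positions printed above for CALML3 and CAMK2B, whose stretches lie wholly inside those positions.
CALML3: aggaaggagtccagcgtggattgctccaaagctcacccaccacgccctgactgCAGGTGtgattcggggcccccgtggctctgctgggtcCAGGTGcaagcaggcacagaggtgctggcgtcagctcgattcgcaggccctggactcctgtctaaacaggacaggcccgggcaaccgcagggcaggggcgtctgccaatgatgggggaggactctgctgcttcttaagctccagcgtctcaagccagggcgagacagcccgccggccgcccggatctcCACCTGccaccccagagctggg
S100A9: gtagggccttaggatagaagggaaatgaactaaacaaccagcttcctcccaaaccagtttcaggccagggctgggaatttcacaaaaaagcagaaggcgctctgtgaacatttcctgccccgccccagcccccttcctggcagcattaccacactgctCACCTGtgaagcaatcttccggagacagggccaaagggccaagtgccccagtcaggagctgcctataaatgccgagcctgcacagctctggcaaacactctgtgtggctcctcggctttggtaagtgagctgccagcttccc
CAMK2B: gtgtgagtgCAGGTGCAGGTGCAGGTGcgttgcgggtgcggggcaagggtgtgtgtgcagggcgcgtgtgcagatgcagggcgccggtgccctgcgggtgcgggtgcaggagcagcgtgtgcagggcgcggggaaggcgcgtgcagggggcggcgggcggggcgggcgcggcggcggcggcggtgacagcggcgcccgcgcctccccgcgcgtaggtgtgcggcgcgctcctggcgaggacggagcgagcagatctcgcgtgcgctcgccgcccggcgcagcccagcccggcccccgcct
SPRR1B: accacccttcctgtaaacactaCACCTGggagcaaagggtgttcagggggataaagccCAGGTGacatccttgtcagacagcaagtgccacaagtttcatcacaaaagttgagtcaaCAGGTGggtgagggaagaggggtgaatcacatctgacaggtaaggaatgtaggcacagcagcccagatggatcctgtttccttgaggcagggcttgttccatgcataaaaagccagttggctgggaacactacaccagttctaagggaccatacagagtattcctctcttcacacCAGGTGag
POSTN: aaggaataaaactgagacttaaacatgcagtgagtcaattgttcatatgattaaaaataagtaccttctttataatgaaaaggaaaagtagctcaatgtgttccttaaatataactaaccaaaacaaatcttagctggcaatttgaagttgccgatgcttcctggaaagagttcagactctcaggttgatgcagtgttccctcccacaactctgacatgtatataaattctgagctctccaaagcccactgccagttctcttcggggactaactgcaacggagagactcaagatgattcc
FN1: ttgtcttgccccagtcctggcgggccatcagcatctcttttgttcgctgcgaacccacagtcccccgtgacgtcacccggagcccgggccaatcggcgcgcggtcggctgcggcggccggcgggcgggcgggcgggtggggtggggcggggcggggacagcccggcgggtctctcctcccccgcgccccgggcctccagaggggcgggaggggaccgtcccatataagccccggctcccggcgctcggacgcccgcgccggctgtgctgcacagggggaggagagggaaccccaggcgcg
CALML3 holds 3 matches, S100A9 1, CAMK2B 3 that adjoin each other, and SPRR1B 4. POSTN and FN1 hold none in this window, which says nothing about other stretches.

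Ligands, receptors and latency proteins of the TGF-β family were higher more often than lower. Of 20 tested, 14 rose and 4 fell (1 on the TPM scale), with a median log2 difference of 0.65 beside -0.02 for all genes. TGFB1 itself averaged 72.5 ± 7.74 CPM in jointly treated, 45.1 ± 2.55 CPM in dimerizer-treated and 27.1 ± 3.16 CPM in control acini, and differed by 1.42 ± 0.09 (SE, edgeR adjusted p = 1.87e-10). The type I receptor gene TGFBR1 had 166, 179 and 173 CPM in jointly treated acini, 52.9, 56.7 and 55 CPM in dimerizer-treated acini and 37.8, 40 and 35.5 CPM in control acini. The latent TGF-β binding proteins, which store the ligand in the matrix, rose by log2 3.16 for LTBP1, 3.96 for LTBP2 and 1.84 for LTBP3, the last against a called fall of -0.39 with dimerizer alone. TGFBR3 (betaglycan), a co-receptor, was lower, at -1.90 ± 0.09 (SE, edgeR adjusted p = 5.34e-11), and lower with dimerizer alone, at log2 -1.002. ACVR1, a type I receptor for BMPs and activin, rose by log2 1.36. The BMP-related ligand GDF11 rose by log2 1.14 and was not called with dimerizer alone, at 0.07 (95% interval -0.17 to 0.32, edgeR adjusted p = 0.624).

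SMAD transducers and feedback targets moved one way. Of 22 tested, 19 rose and none fell with a median log2 of 1.14, and 4 of the 19 were opposite genes, while dimerizer alone called 8 higher and 8 lower. PMEPA1, which restrains TGF-β signalling, had 667, 807 and 813 CPM in jointly treated acini, 25.6, 24.7 and 24.7 CPM in dimerizer-treated acini and 14.6, 14.1 and 16.2 CPM in control acini. The groups did not overlap. SKIL and SKI, corepressors of SMADs, rose by log2 3.27 and 1.36. NEDD9, a docking protein of focal adhesions, had 57.8, 70.5 and 66.7 CPM in jointly treated acini, 1.69, 2.1 and 1.97 CPM in dimerizer-treated acini and 3.81, 3.87 and 3.66 CPM in control acini, with log2 differences of 4.10 with the joint treatment and -0.97 with dimerizer alone. SMAD7, the inhibitory SMAD, averaged 41.7 ± 2.2 CPM in jointly treated, 9.93 ± 0.606 CPM in dimerizer-treated and 18.1 ± 0.523 CPM in control acini, and TGFBI, a secreted TGF-β-induced protein, averaged 14150 ± 329 CPM in jointly treated, 3147 ± 139 CPM in dimerizer-treated and 6726 ± 233 CPM in control acini. Both fell with dimerizer alone, at log2 -0.87 and -1.10, and rose with the joint treatment, at 1.20 and 1.07; both were named after their values were seen.

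BMP ligands, inhibitors and targets were divided, with 8 of 19 higher, 7 lower and a median log2 of -0.02. The shares of all genes tested were 31.3% higher and 30.5% lower. ATOH8, a BMP target factor, had 18, 12.6 and 15.2 CPM in jointly treated acini, 2.69, 3.3 and 3.6 CPM in dimerizer-treated acini and 91.3, 95.4 and 103 CPM in control acini. It was below control under both treatments, though less so with TGF-β1, at log2 -2.65 against -4.91 with dimerizer alone. SMAD9, the BMP-regulated SMAD, stood at -1.06 and -1.68, and DLX3, a homeobox factor of epithelium, at -2.78 and -3.82, for the joint treatment and dimerizer alone in that order. ID1, a BMP target named after its values were seen, stood at 0.56 and -1.63. BMP1, which trims procollagens, rose by log2 1.60 and was not called with dimerizer alone (-0.09). The receptor BMPR2 rose by 0.97. On the TPM scale with a pseudocount of 1 the list stood at 10 higher and 5 lower (median 0.20).

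Matrix genes had the largest median of the lists, 2.52, with 20 of 22 tested called higher and none lower. Of the 20, 5 were opposite genes and 6 were not called with dimerizer alone. COL1A1, a fibrillar collagen chain, had 309.8, 319 and 339 CPM in jointly treated acini, 41.3, 39.1 and 39.8 CPM in dimerizer-treated acini and 90.8, 96.7 and 97.8 CPM in control acini. It was lowest with dimerizer alone, and its log2 differences were 1.76 ± 0.05 (SE, edgeR adjusted p = 2.13e-22) with the joint treatment and -1.25 ± 0.05 (SE) with dimerizer alone. The basement membrane collagens COL4A1 and COL4A2 averaged 284 ± 23.5 and 481 ± 36.6 CPM in jointly treated acini, against 4.59 ± 0.208 and 11.2 ± 0.963 CPM in control acini. COL7A1, the anchoring fibril collagen, averaged 2152 ± 135 CPM in jointly treated, 496 ± 26.1 CPM in dimerizer-treated and 421 ± 20.6 CPM in control acini. COL6A3, a microfibrillar collagen chain, had 36.6, 53.5 and 53.3 CPM in jointly treated acini and 0.254, 0.484 and 0.638 CPM in control acini, a log2 difference of 6.70 ± 0.23 (SE, edgeR adjusted p = 2.82e-12). The lysyl hydroxylase PLOD2 rose by 1.54 and P4HA3, a prolyl hydroxylase, averaged 15 ± 2.66 CPM in jointly treated, 0.14 ± 0.032 CPM in dimerizer-treated and 0.0433 ± 0.0184 CPM in control acini.

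Proteases and their inhibitors were higher in 18 of 23 tested and lower in 3, with a median log2 of 1.81; 11 of the higher genes were not called with dimerizer alone. MMP2 (gelatinase A) had 36.5, 35.6 and 35.3 CPM in jointly treated acini and 0.54, 0.387 and 0.202 CPM in control acini, and differed by 6.54 ± 0.14 (SE, edgeR adjusted p = 8.8e-25). Its membrane-bound activator MMP14 averaged 448 ± 20.8 CPM in jointly treated, 205 ± 12.5 CPM in dimerizer-treated and 199 ± 11.3 CPM in control acini, and its inhibitor TIMP2 averaged 219 ± 8.09 CPM in jointly treated, 43.3 ± 0.374 CPM in dimerizer-treated and 89 ± 2.51 CPM in control acini. TIMP2 was an opposite gene, at log2 1.30 with the joint treatment and -1.04 with dimerizer alone. The serine protease FAP had 149, 166 and 153 CPM in jointly treated acini, 1.06, 1.34 and 1.04 CPM in dimerizer-treated acini and 0.73, 0.581 and 0.369 CPM in control acini, and HTRA1, a secreted protease that binds TGF-β family members, averaged 928 ± 47.2 CPM in jointly treated, 317 ± 8.43 CPM in dimerizer-treated and 311 ± 16.4 CPM in control acini. Markers of fibroblasts, which also express matrix and protease genes, moved with these lists. Of 6 fibroblast markers tested of 10 listed, DCN, COL6A3, TWIST2 and DPT were called higher and none lower, and the summed CPM of the list was 155 to 202 in jointly treated and 47.7 to 52.8 in control acini. PDGFRA, LUM, TCF21 and PI16 were too low to be tested, and DPT had 5 counts over the jointly treated and 0 over the control libraries. The DPT call ended without jointly treated replicate 1 (edgeR adjusted p = 0.104) or 2 (edgeR adjusted p = 0.0621), without any 1 of the control libraries (edgeR adjusted p = 0.0605 to 0.0647) and on both TPM scales. All libraries are of 1 mammary epithelial line by their labels, and whether other cells were present was not tested.

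Integrin chains and hemidesmosome genes were higher in 18 of 21 tested and lower in 1, with a median log2 of 1.42. ITGB6, whose product pairs with ITGAV to free latent TGF-β, had 453, 509 and 494 CPM in jointly treated acini, 39.7, 43.5 and 41 CPM in dimerizer-treated acini and 9.78, 13.2 and 11.8 CPM in control acini. ITGAV averaged 573 ± 39 CPM in jointly treated, 198 ± 3.01 CPM in dimerizer-treated and 128 ± 4.84 CPM in control acini. Both were highest in jointly treated and intermediate in dimerizer-treated acini, with joint log2 differences of 5.39 ± 0.07 (SE, edgeR adjusted p = 1.6e-24) for ITGB6 and 2.16 ± 0.05 (SE, edgeR adjusted p = 4.35e-21) for ITGAV. ITGB5 rose by log2 2.59 and ITGA6 by 1.18. The laminin chain LAMA3 was abundant, at 3253 ± 202 CPM in jointly treated and 563 ± 32.5 CPM in control acini. CD151, a tetraspanin partner of laminin-binding integrins, rose by 1.42 and was not called with dimerizer alone, at 0.11 (95% interval 0.01 to 0.22, edgeR adjusted p = 0.0563).

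EMT factors and mesenchymal markers were higher in 11 of 16 tested and lower in 3, with a median log2 of 0.82. N-cadherin (CDH2) had 20.1, 24.6 and 22.8 CPM in jointly treated acini, 3.69, 3.59 and 3.2 CPM in dimerizer-treated acini and 1.97, 1.42 and 1.04 CPM in control acini, and differed by 3.92 ± 0.12 (SE, edgeR adjusted p = 2.07e-21). Vimentin (VIM), the mesenchymal intermediate filament, averaged 1221 ± 64.5 CPM in jointly treated, 1047 ± 39.9 CPM in dimerizer-treated and 599 ± 39.4 CPM in control acini, with log2 differences of 1.03 with the joint treatment and 0.80 with dimerizer alone. The receptor kinase AXL rose by log2 1.11 and the hyaluronan receptor CD44 by 1.20. The factor TWIST2 rose by 0.77, and ZEB2 was lower under both treatments (-1.23 with the joint treatment and -1.32 with dimerizer alone).

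Epithelial junction and identity genes were divided, beside 31.3% higher and 30.5% lower of all genes tested. Of 26 tested, 7 were higher and 10 lower, with a median log2 of -0.05, whereas dimerizer alone called 14 higher and 1 lower; on the TPM scale with a pseudocount of 1 the joint counts were 12 higher and 7 lower (median 0.15). E-cadherin (CDH1) averaged 81.7 ± 10.1 CPM in jointly treated, 106 ± 1.73 CPM in dimerizer-treated and 59.5 ± 4.26 CPM in control acini, and was higher than control with the joint treatment, at 0.46 ± 0.06 (SE, edgeR adjusted p = 2.29e-06), and with dimerizer alone, at 0.83 ± 0.06 (SE). P-cadherin (CDH3) rose by log2 1.10. EPCAM, an epithelial adhesion molecule, had 2.63, 2.19 and 2.19 CPM in jointly treated acini, 10.1, 9.83 and 8.76 CPM in dimerizer-treated acini and 8.35, 9.78 and 9.07 CPM in control acini, and CLDN7, a tight junction claudin that binds it, had 11.9, 13.5 and 14.3 CPM in jointly treated acini, 33.6, 32.8 and 32.2 CPM in dimerizer-treated acini and 34.6, 34.7 and 35.3 CPM in control acini. The jointly treated libraries were the lowest in both, with log2 differences of -1.95 ± 0.12 (SE, edgeR adjusted p = 7.37e-15) and -1.40 ± 0.06 (SE, edgeR adjusted p = 2.67e-18), and dimerizer alone was not called in either. GRHL3, a factor of epithelial barrier genes, was an opposite gene at -1.76 with the joint treatment and 0.35 with dimerizer alone.

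Of 24 desmosome and squamous genes tested, 17 were lower and 2 higher, with a median log2 of -1.34; 9 of the 17 were not called with dimerizer alone. On the TPM scale with a pseudocount of 1 there were 13 lower and 4 higher (median -0.24). Besides DSG1, KRT1, SBSN and SPRR1B above, KRT10, the suprabasal partner of KRT1, had 2094, 1289 and 1360 CPM in jointly treated acini, 916, 1009 and 1017 CPM in dimerizer-treated acini and 6787, 6739 and 7556 CPM in control acini. It was far below control under both treatments, and jointly treated libraries lay above the dimerizer-treated ones. TGM1, the keratinocyte transglutaminase, fell at log2 -2.65 with the joint treatment and -1.10 with dimerizer alone. Other desmosome genes differed by less than DSG1, with the plakophilin PKP2 at -0.50, desmoplakin DSP at -0.34 and plakoglobin JUP at 0.38, and DSP was not called on either TPM scale (limma adjusted p = 0.177 with a pseudocount of 1 and 0.174 with 0.1).

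Keratins and lineage factors were split, 8 of 20 higher and 8 lower, with a median log2 of -0.29. On the TPM scale with a pseudocount of 1 they were 9 higher and 8 lower. The shares of all genes tested were 31.3% higher and 30.5% lower. The simple keratins KRT7 and KRT8 averaged 421 ± 50.7 and 291 ± 22.5 CPM in jointly treated acini, 132 ± 7.32 and 97.9 ± 1.26 CPM in dimerizer-treated acini, and 119 ± 12.6 and 133 ± 5.41 CPM in control acini. KRT8 was an opposite gene (1.13 with the joint treatment and -0.44 with dimerizer alone). The basal keratin KRT5 was lower at -0.79, and the stress keratin KRT16 at -2.41, while KRT6A rose by 0.64. SOX9, a progenitor factor, rose by 1.81, and KLF5 and TFAP2A, factors of basal epithelium, were lower at -0.73 and -0.55. The listed markers of mammary epithelium summed to 5262 to 6238 CPM in jointly treated, 8014 to 8636 in dimerizer-treated and 8495 to 9374 CPM in control acini, with 4 of 7 higher and 3 lower.

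**Figure D3:**
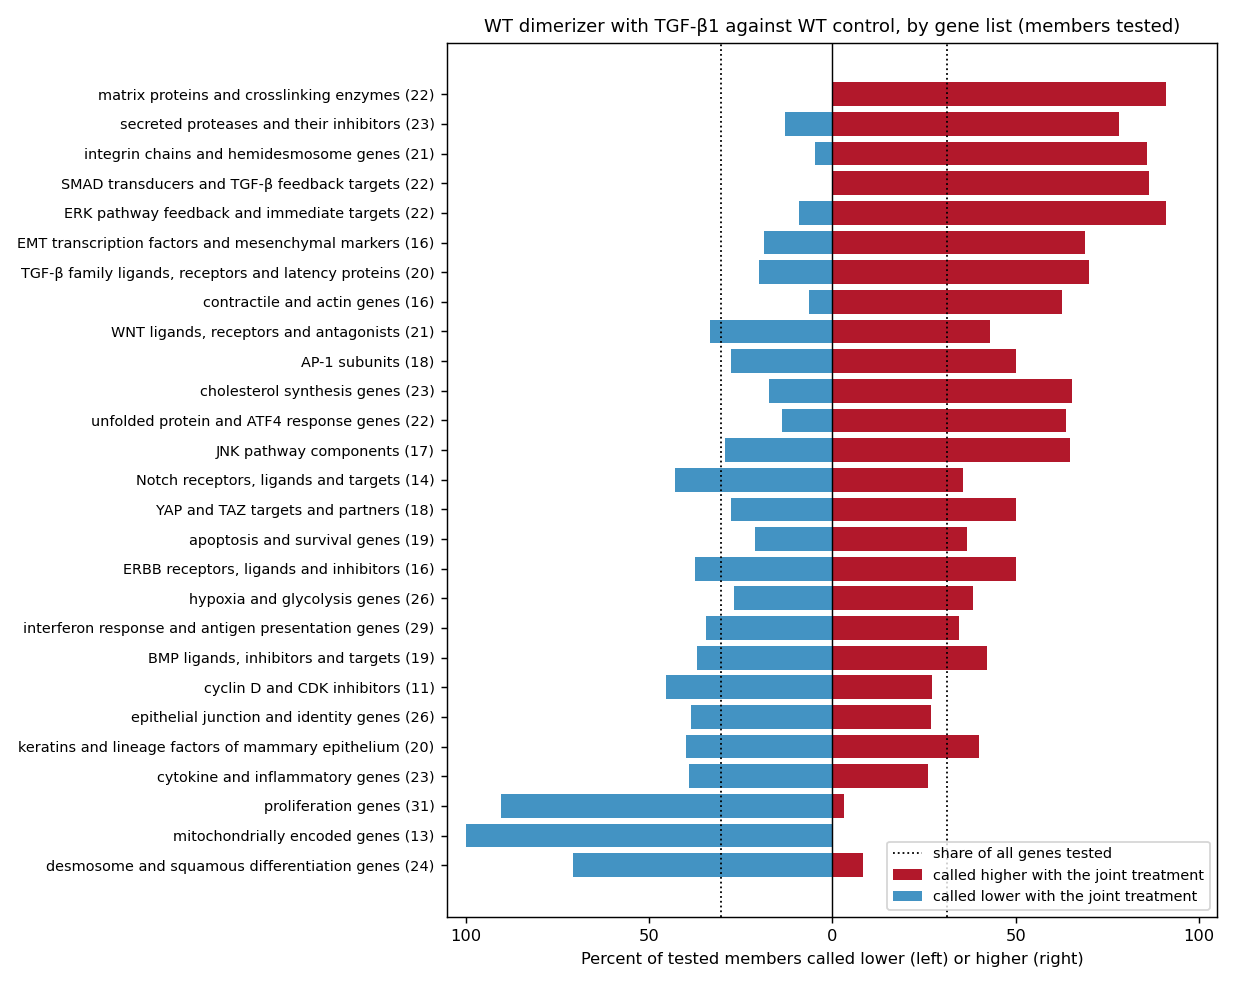
Share of the tested members of 27 gene lists called lower (blue, left) or higher (red, right) in WT dimerizer with TGF-β1 than in WT control, ordered by the median log2 difference; dotted lines mark the shares of all genes tested, 30.5% lower and 31.3% higher. Matrix genes (20 of 22 higher) stand at the top, and mitochondrially encoded (13 of 13 lower) and squamous genes (17 of 24 lower) at the foot.

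ERK feedback genes were mostly higher under both treatments. Of 22 tested, 20 were higher and 2 lower with the joint treatment (median log2 0.98), and 17 were higher and 2 lower with dimerizer alone (median 0.61). SPRED1, an inhibitor of RAS signalling, had 48.4, 56.1 and 55.5 CPM in jointly treated acini, 50, 47.4 and 49.9 CPM in dimerizer-treated acini and 16.3, 19.8 and 16.4 CPM in control acini. The treated groups overlapped and both lay above control, and the same held for its relative SPRED2 and for the ETS factor ETV5, at joint log2 differences of 0.99 and 1.38. The phosphatase DUSP7 rose by 0.83. The immediate early factor EGR2 averaged 1.9 ± 0.391 CPM in jointly treated, 0.202 ± 0.0534 CPM in dimerizer-treated and 0.185 ± 0.0515 CPM in control acini, with a rise of 3.34 ± 0.33 (SE, edgeR adjusted p = 4.22e-10) that was not called with dimerizer alone. CCND1 (cyclin D1) averaged 250.4 ± 25.7 CPM in jointly treated, 93.5 ± 2.77 CPM in dimerizer-treated and 123 ± 3.68 CPM in control acini and was an opposite gene, at 1.02 with the joint treatment and -0.40 with dimerizer alone. EPHA4, an ephrin receptor, was lower under both, at -1.51 with the joint treatment and -1.76 with dimerizer alone.

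ERBB family members were called in both directions, with 8 of 16 higher, 6 lower and a median log2 of 0.08. The shares of all genes tested were 31.3% higher and 30.5% lower. At least 2-fold, 3 were lower and 0 higher. ERBB2, counted with the transgene, was not called with the joint treatment, at 0.01 (95% interval -0.08 to 0.10, edgeR adjusted p = 0.81), and was lower with dimerizer alone, at -0.48. NGFR, also part of the transgene, rose by 0.48, and EGFR by 0.15, which was not called without jointly treated replicate 1 (log2 0.09, edgeR adjusted p = 0.0614). With dimerizer alone EGFR was lower, at log2 -0.49. The ligands named here were lower than in control with the joint treatment. EREG (epiregulin) averaged 1.84 ± 0.0722 CPM in jointly treated, 5.64 ± 1.01 CPM in dimerizer-treated and 3.82 ± 0.48 CPM in control acini, and NRG2, a neuregulin, averaged 0.168 ± 0.0267 CPM in jointly treated, 2.54 ± 0.408 CPM in dimerizer-treated and 1.58 ± 0.31 CPM in control acini, both opposite genes like HBEGF. LRIG1, which lowers ERBB receptors, differed by -0.81 with the joint treatment and 0.91 with dimerizer alone, and its relative LRIG3 by 0.24 with the joint treatment and 0.54 with dimerizer alone.

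AP-1 and JNK genes were called in both directions, beside 31.3% higher and 30.5% lower of all genes tested. Of 18 AP-1 subunits, 9 were higher and 5 lower (median log2 0.37), and 10 higher and 3 lower on the TPM scale. JUN had 301, 322 and 351 CPM in jointly treated acini, 82.5, 84 and 79.3 CPM in dimerizer-treated acini and 93.5, 94.3 and 101 CPM in control acini. The jointly treated libraries were the highest, with log2 differences of 1.75 ± 0.07 (SE, edgeR adjusted p = 4.74e-14) for the joint treatment and -0.23 ± 0.07 (SE, edgeR adjusted p = 0.00695) for dimerizer alone, a small but called fall. FOS, its usual partner, was lower at -0.78 ± 0.16 (SE, edgeR adjusted p = 0.000996), FOSL2 was lower at -1.23 and FOSB higher at 1.56. The large MAF factor MAF rose by 2.34, and the small ones MAFF and MAFK changed direction, at 0.68 with the joint treatment and -0.999 with dimerizer alone for MAFF and 0.44 with the joint treatment and -0.69 with dimerizer alone for MAFK. Among 17 JNK pathway genes 11 were higher and 5 lower (median 0.24), and 12 higher and 2 lower on the TPM scale with a pseudocount of 1 (median 0.46). DUSP10, a phosphatase that acts on JNK, had 61.1, 62.8 and 61.6 CPM in jointly treated acini, 20.6, 20.1 and 19.7 CPM in dimerizer-treated acini and 11.4, 10.8 and 11.5 CPM in control acini. The scaffold MAPK8IP1 rose by 1.12 and the kinase MAP4K4 by 0.67, while MAPK10 (JNK3) was lower at -1.27 and MAP3K5 (ASK1) at -0.77. MAPK8 stood at 0.45 ± 0.06 (SE, edgeR adjusted p = 3.01e-08). MAPK9, at 0.10 ± 0.04 (SE, edgeR adjusted p = 0.0434), lost its call in 10 of the other settings.

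Proliferation genes, in contrast to ERK feedback, were lower with the joint treatment. Of 31 tested, 28 were lower and 1 higher (median log2 -0.64), whereas dimerizer alone called 16 higher and none lower (median 0.19). MKI67 had 29.5, 28.7 and 29.5 CPM in jointly treated acini, 61, 78.2 and 62.8 CPM in dimerizer-treated acini and 47.3, 74.8 and 57.5 CPM in control acini. Its joint log2 difference was -1.03 ± 0.15 (SE, edgeR adjusted p = 4.01e-05), with 0.17 (95% interval -0.13 to 0.47, edgeR adjusted p = 0.321) for dimerizer alone. CDC20, an activator of the anaphase complex, averaged 9.87 ± 1.15 CPM in jointly treated, 27.1 ± 4.32 CPM in dimerizer-treated and 25 ± 4.36 CPM in control acini, and AURKB, a mitotic kinase, averaged 2.52 ± 0.46 CPM in jointly treated, 5.64 ± 0.602 CPM in dimerizer-treated and 5.18 ± 0.944 CPM in control acini. TOP2A (topoisomerase II), named after its values were seen, averaged 29.8 ± 1.88 CPM in jointly treated, 92.7 ± 12.1 CPM in dimerizer-treated and 51.2 ± 7.65 CPM in control acini. The factors FOXM1 and MYBL2 were lower at -0.69 and -0.86, and MCM2 of the replication helicase at -0.71. The jointly treated libraries lay below both other groups in MKI67, CDC20, AURKB, FOXM1, MYBL2 and MCM2. On the TPM scale with a pseudocount of 1 the list had 17 lower and 3 higher (median -0.31). On both TPM scales these 6 falls stayed called and were smaller, for example -0.60 for MKI67 with a pseudocount of 1.

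The list of D cyclins and CDK inhibitors does not hold CCND1, which is given above with the ERK feedback genes. Of its 11 genes tested 3 were higher and 5 lower (median log2 -0.03), and on the TPM scale 6 were higher and 4 lower. The shares of all genes tested were 31.3% higher and 30.5% lower. CCND2 rose by 0.62 and CDK6 by 0.54, and CDKN1B (p27) was lower at -0.63. The pocket proteins RBL1 and RBL2 were lower at -0.77 and -0.35, and RBL2 was not called on either TPM scale (limma adjusted p = 0.162 with a pseudocount of 1 and 0.163 with 0.1). Of 19 apoptosis genes 7 were higher and 4 lower (median 0.09), beside the same shares of all genes. On the TPM scale they were 13 higher and 2 lower (median 0.27). The BH3-only gene HRK averaged 11.5 ± 1.58 CPM in jointly treated, 4.19 ± 0.321 CPM in dimerizer-treated and 46.4 ± 2.19 CPM in control acini, and so was lower under both treatments. MCL1, which protects from apoptosis, rose by 0.57, and TNFSF10 (TRAIL), a death ligand, by 1.76 ± 0.15 (SE, edgeR adjusted p = 3.3e-11).

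**Figure D4:**
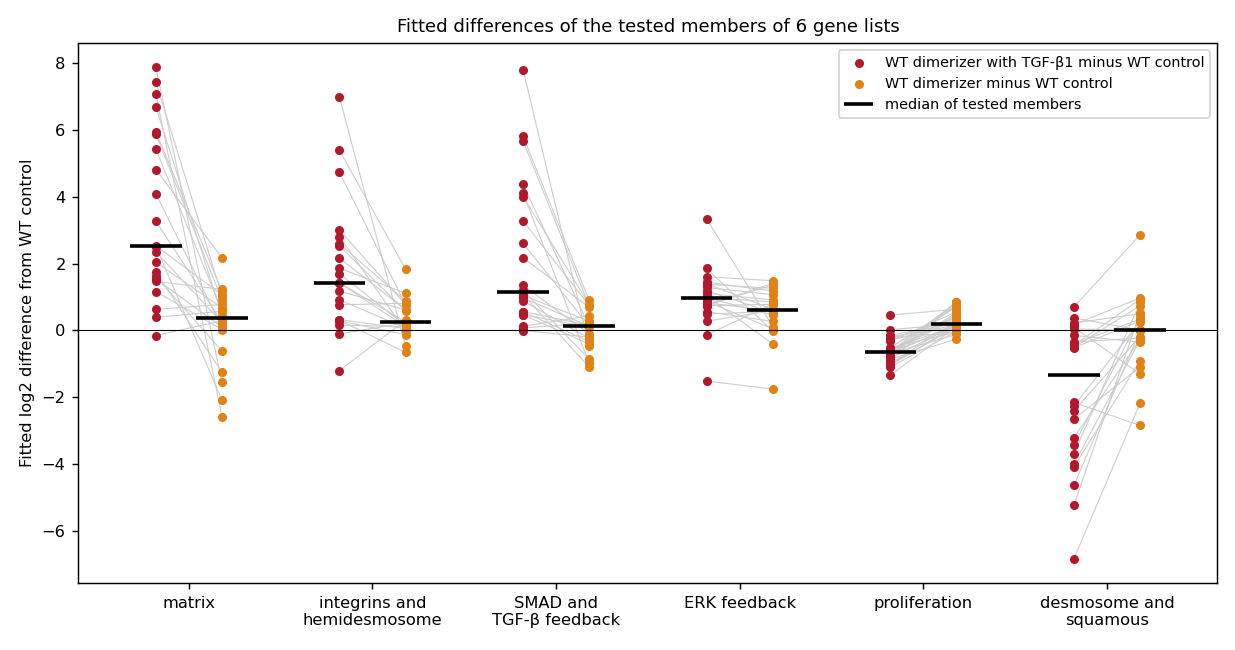
Fitted log2 difference from WT control for each tested member of 6 gene lists (points joined by a grey line per gene), with WT dimerizer and TGF-β1 left and WT dimerizer right in each pair; black bars are medians. The median of proliferation genes lies at -0.64 with the joint treatment and 0.19 with dimerizer alone, and that of matrix genes at 2.52 and 0.37.

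Contractile and actin genes were higher in 10 of 16 and lower in 1 (median log2 0.64). FLNA (filamin A) averaged 1877 ± 83.8 CPM in jointly treated, 717 ± 25.7 CPM in dimerizer-treated and 703 ± 33.6 CPM in control acini, and its dimerizer difference was 0.03 (95% interval -0.06 to 0.11, edgeR adjusted p = 0.593). ACTN1, TPM4 and CALD1, which crosslink or coat actin, rose by 1.69, 1.93 and 1.34, and the myosin heavy chain MYH9 by 0.82. Of 18 YAP and TAZ partners and targets 9 were higher and 5 lower (median 0.16), against 3 higher and 11 lower with dimerizer alone. The joint shares of all genes tested were 31.3% higher and 30.5% lower. On the TPM scale with a pseudocount of 1 the joint counts of the list were 12 higher and 1 lower (median 0.37). TEAD2 and TEAD3, DNA-binding partners of YAP, rose by 1.51 and 1.39. Tissue factor (F3) had 47, 50.4 and 56.6 CPM in jointly treated acini, 11.9, 12.8 and 11.4 CPM in dimerizer-treated acini and 10.6, 10.9 and 10.7 CPM in control acini, and was not called with dimerizer alone. ARHGEF17 and AMOTL1 rose by 0.65 and 0.58.

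Metabolic and stress lists showed smaller shifts. Of 23 cholesterol synthesis genes 15 were higher and 4 lower (median log2 0.29; 18 higher and 1 lower on the TPM scale), and 19 were higher and none lower with dimerizer alone (median 0.50). SQLE, IDI1, MSMO1 and CYP51A1, enzymes of the pathway, rose by 0.84, 1.14, 0.90 and 0.60, with overlap between the treated groups. Of 26 hypoxia and glycolysis genes 10 were higher and 7 lower (median 0.04), near the 31.3% higher and 30.5% lower of all genes tested. On the TPM scale with a pseudocount of 1 they were 16 higher and 5 lower (median 0.32). SLC2A1 (GLUT1), a glucose transporter, averaged 73.4 ± 7.82 CPM in jointly treated, 149 ± 2.95 CPM in dimerizer-treated and 159 ± 5.45 CPM in control acini, whereas PFKP and PFKFB4, which drive phosphofructokinase flux, rose by 1.34 and 1.90. PKM and PFKFB3 rose by 0.57 and 0.66, and GPI was lower at -0.43. CA9 had 0.121, 1.33 and 3.52 CPM in jointly treated acini and 12.4, 3.68 and 5.41 CPM in control acini, a log2 difference of -2.12 ± 0.65 (SE, edgeR adjusted p = 0.0127). Its call ended without control replicate 1 (log2 -1.45, edgeR adjusted p = 0.0846), and without jointly treated replicate 3, the library with the conflicting tag, it stood at -3.39 (edgeR adjusted p = 0.0037).

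Of 22 unfolded protein and ATF4 genes 14 were higher and 3 lower (median log2 0.27). Among the members named by the rule, the chaperones and folding factors CALR rose by 0.75, MANF by 0.98, PDIA4 by 0.82, PDIA6 by 0.45 and DNAJC3 by 0.78. PSAT1, an enzyme of serine synthesis, had 27.4, 25.4 and 25.9 CPM in jointly treated acini, 138, 121 and 126 CPM in dimerizer-treated acini and 73.3, 80 and 74.7 CPM in control acini. PHGDH, the first enzyme of that pathway, had 3.23, 3.05 and 3.58 CPM in jointly treated acini, 29.9, 21.5 and 23 CPM in dimerizer-treated acini and 4.95, 7.91 and 7.86 CPM in control acini. In both the dimerizer-treated libraries were the highest and the jointly treated the lowest, with joint differences of -1.53 ± 0.12 (SE, edgeR adjusted p = 7.23e-08) and -1.06 ± 0.28 (SE, edgeR adjusted p = 0.00444). All 13 mitochondrially encoded transcripts were lower with the joint treatment (median -0.70) and with dimerizer alone (median -0.99); MT-ND2 and MT-ND1, subunits of complex I, stood at -1.29 and -1.18. MT-ND4, MT-CYB and MT-CO3 stood at -0.68, -0.78 and -0.75.

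Interferon and antigen presentation genes were balanced, 10 of 29 higher and 10 lower (median log2 0.01), and 15 higher and 7 lower on the TPM scale with a pseudocount of 1. These shares lay near those of all genes tested, 31.3% higher and 30.5% lower. The members named here were all higher and do not stand for the list. In it 4 genes rose at least 2-fold, and none of the 10 lower genes fell 2-fold. IFI44L, an interferon-induced gene, had 16.6, 22 and 20.4 CPM in jointly treated acini, 3.09, 2.48 and 2.36 CPM in dimerizer-treated acini and 1.91, 1.9 and 1.85 CPM in control acini. Its neighbour IFI44 was an opposite gene at 1.51 with the joint treatment and -0.64 with dimerizer alone, and ISG15, a ubiquitin-like interferon product, rose by 1.21. STAT2 and IRF9, members of an interferon transcription complex, rose by 0.52 and 0.88. Of 23 cytokine and inflammatory genes 6 were higher and 9 lower (median -0.41), beside the same shares of all genes. On the TPM scale with a pseudocount of 1 they were 6 higher and 8 lower (median -0.09). At least 2-fold, 4 were higher and 5 lower, and 3 of the lower were opposite genes. The cytokine and inflammatory genes named here do not stand for their list. IL11, a known TGF-β-induced cytokine, had 15.4, 17.4 and 19.2 CPM in jointly treated acini, 2.62, 1.87 and 2.44 CPM in dimerizer-treated acini and 1.05, 0.936 and 1.38 CPM in control acini, a difference of 3.95 ± 0.20 (SE, edgeR adjusted p = 6.67e-13). The chemokine CCL20 rose by 2.32 and PTGS2 (cyclooxygenase 2) by 2.20. SAA1, an acute phase protein, averaged 140.5 ± 10.8 CPM in jointly treated, 301 ± 14 CPM in dimerizer-treated and 293 ± 17.9 CPM in control acini, and TNFAIP3, an NF-κB inhibitor, was lower at -0.50. Immune markers were called higher in 2 and lower in 2 of 6 tested, with summed CPM of 60.0 to 72.1 in jointly treated and 19.8 to 21.5 in control acini, of which CSF1R made up 50.4 ± 2.98 CPM in jointly treated and 5.67 ± 0.749 CPM in control acini. CD68 rose by 1.12, and CD14 and ITGAM were lower at -2.07 and -1.55; ITGAM stood below 1 CPM. PTPRC, the pan-leukocyte marker, averaged 0.312 ± 0.106 CPM in jointly treated and 0.75 ± 0.135 CPM in control acini and was not called, and CD3E, LYZ and HBB were too low to be tested. Of 3 endothelial markers tested, PECAM1 and KDR were lower, at -2.20 and -0.69, and the remaining marker was not called. With DESeq2 and on log2(TPM + 0.1), 1 of the 3 was called higher and 2 lower. CDH5, VWF and CLDN5 were among the members too low to be tested. The summed CPM of that list was 24.96 to 28.8 in jointly treated and 42.9 to 45.0 in control acini. By their labels all libraries are of 1 mammary epithelial line, and whether immune or endothelial cells were present was not tested.

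Of 21 WNT genes 9 were higher and 7 lower (median log2 0.44), beside 31.3% higher and 30.5% lower of all genes tested. On the TPM scale with a pseudocount of 1 there were 10 higher and 5 lower (median 0.10). Of the lower WNT genes 2 fell at least 2-fold and were opposite genes, whereas the WNT genes named here were all higher. The ligands WNT5A and WNT7A averaged 33.1 ± 7.3 and 7.34 ± 0.557 CPM in jointly treated acini, and 4.94 ± 0.352 and 0.49 ± 0.133 CPM in control acini. WNT9A rose by 1.11, the receptor FZD7 by 1.31, the factor LEF1 by 1.78 and the feedback gene AXIN2 by 1.60. Of 14 Notch genes 5 were higher and 6 lower (median 0.21), beside the same shares of all genes. On the TPM scale they were 7 higher and 3 lower. NOTCH3 had 2.42, 2.82 and 3.06 CPM in jointly treated acini, 14.5, 13.5 and 14.7 CPM in dimerizer-treated acini and 13, 15.7 and 15.8 CPM in control acini, and differed by -2.42 ± 0.13 (SE, edgeR adjusted p = 1.04e-14) with the joint treatment and by -0.06 (95% interval -0.27 to 0.15, edgeR adjusted p = 0.647) with dimerizer alone. NOTCH1 was lower at -0.57 and NOTCH2 higher at 0.47. LFNG (lunatic fringe), which modifies Notch, was an opposite gene at 1.59 with the joint treatment and -0.52 with dimerizer alone, and the repressor HES2 rose by 1.36.

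Of the 10 largest rises and 10 largest falls, LBH, FAP, P4HA3, MERTK and BEST2 were called alike with dimerizer alone. LBH, a WNT-responsive transcription cofactor of mammary basal cells, had 136, 171 and 166 CPM in jointly treated acini, 1.63, 1.37 and 1.54 CPM in dimerizer-treated acini and 1.05, 0.742 and 0.369 CPM in control acini. MERTK, a receptor kinase that binds GAS6, had 1.03, 0.961 and 1.05 CPM in jointly treated acini, 3.65, 3.56 and 3.85 CPM in dimerizer-treated acini and 24.9, 25.5 and 26 CPM in control acini. BEST2, a bestrophin chloride channel, averaged 0.333 ± 0.0787 CPM in jointly treated, 1.54 ± 0.264 CPM in dimerizer-treated and 6.57 ± 0.165 CPM in control acini. In MERTK and BEST2 the joint value lay below the dimerizer-treated value, which itself lay below control.

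Jointly treated and control JNKKO acini were compared in the same way. Their difference was not used to choose the genes, but the JNKKO libraries shared the filter and the estimate of the spread with the WT libraries. With the joint treatment 5723 genes were called higher (33.8%) and 5656 lower (33.4%) in JNKKO acini. Of the 126 opposite genes that were higher in WT, 124 (98.4%) were also higher in JNKKO, and of the 178 that were lower, 165 (92.7%) were also lower. For genes not called with dimerizer alone the counts were 486 of 533 higher (91.2%) and 274 of 356 lower (77.0%). For genes called alike under both treatments they were 509 of 540 higher (94.3%) and 159 of 174 lower (91.4%), so such agreement was not particular to the opposite genes. In JNKKO acini dimerizer alone was called against the joint direction in 15 of the 126 and 22 of the 178 opposite genes, with it in 58 and 89, and not called in 53 and 67. KRT15, for example, had 246, 216 and 182 CPM in jointly treated, 3525, 3415 and 3458 CPM in dimerizer-treated and 5078, 5005 and 4961 CPM in control JNKKO acini, with control the highest group.

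The interaction, which sets the WT joint difference against the JNKKO one, was called for 6072 genes (35.9%), among them 87 of the 126 (69.0%) and 97 of the 178 (54.5%) opposite genes. Among genes called alike under both treatments it was called for 301 of 540 higher (55.7%) and 94 of 174 lower genes (54%). The share of the higher genes lay below that of the opposite higher genes, and that of the lower genes lay near. Of those not called with dimerizer alone the shares were 30.8% of the higher and 28.4% of the lower genes. The interaction was positive where the WT difference was the larger number. POSTN had 2706, 2828 and 2684 CPM in jointly treated JNKKO and 4.54, 1.09 and 1.3 CPM in control JNKKO acini, a log2 difference of 10.19 ± 0.33 (SE) that exceeded the WT one, with an interaction of -3.12 ± 0.64 (SE, edgeR adjusted p = 0.00175). SLC7A8 differed by 3.85 ± 0.07 and WIPF1 by 3.80 ± 0.10 (SE) in JNKKO, with interactions of -1.50 ± 0.09 (SE, edgeR adjusted p = 3.37e-13) and -1.11 ± 0.14 (SE, edgeR adjusted p = 1.67e-07). Their jointly treated levels were lower in JNKKO than in WT, and so were their control levels. The interaction of HS3ST2 did not pass, at -1.21 (95% interval -2.43 to 0.001, edgeR adjusted p = 0.114), and on log2(TPM + 1) it turned round and passed, at 0.51 (limma adjusted p = 0.0155).

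Among the opposite genes that were lower, KRT15 had an interaction of 1.35 ± 0.17 (SE, edgeR adjusted p = 2.87e-05) and CALML3 of 2.99 ± 0.25 (SE, edgeR adjusted p = 1.29e-10), with larger falls in JNKKO (-4.55 and -5.32). S100A8 did not pass at -0.49 (95% interval -0.91 to -0.07, edgeR adjusted p = 0.067), though it passed in 5 other settings. CA2 passed narrowly at 0.41 ± 0.16 (SE, edgeR adjusted p = 0.0399) and missed the threshold in 11 other settings. E-cadherin, named throughout and singled out here after its values were seen, took opposite directions in the genotypes. CDH1 had 93.3, 76 and 75.8 CPM in jointly treated WT and 57, 56.9 and 64.4 CPM in control WT acini. In JNKKO acini it had 39.5, 39.2 and 40.9 CPM with the joint treatment and 85.4, 78.5 and 80.5 CPM in control. It was higher than control by 0.46 ± 0.06 in WT and differed by -1.03 ± 0.07 in JNKKO on the log2 scale (SE), an interaction of 1.49 ± 0.09 (SE, edgeR adjusted p = 5.02e-11).

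**Figure D5:**
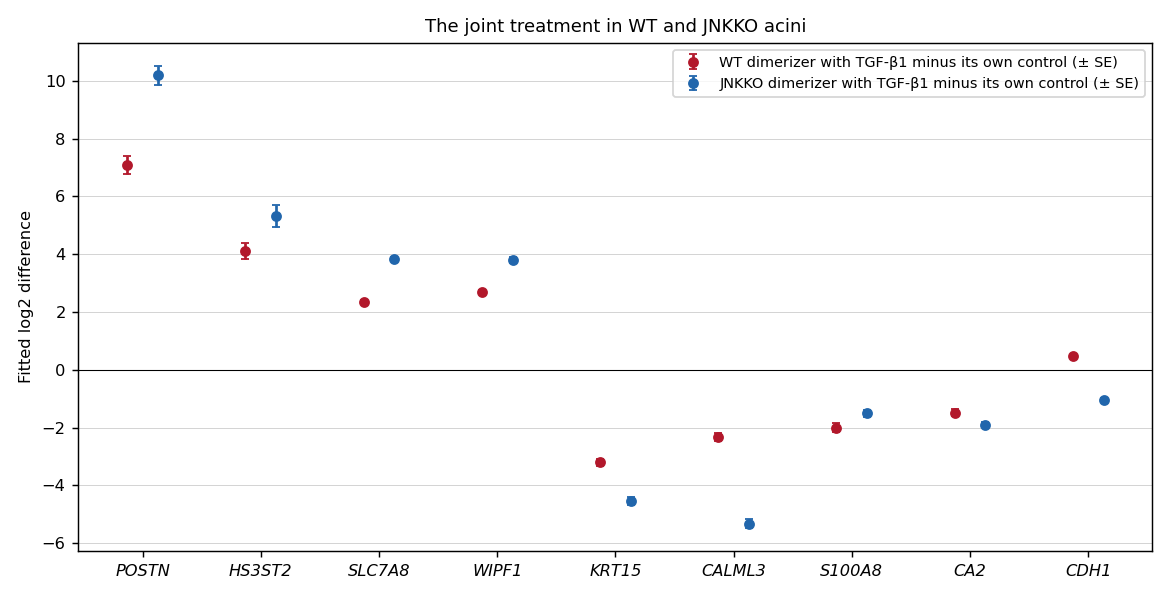
Fitted log2 difference (± SE) of dimerizer with TGF-β1 from the control of the same genotype, in WT (left point) and JNKKO (right point), for 4 opposite genes per direction and CDH1. The 8 opposite genes have the same sign in both genotypes, and CDH1 is positive in WT (0.46) and negative in JNKKO (-1.03).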

How the data were processed

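RNA-seq libraries of MCF-10A.B2 acini were analysed, 18 in all, with 3 in each of 6 groups named by genotype and treatment. The authors deposited expected counts per gene, estimates that need not be whole, and TPM values per gene, both made with RSEM after trimming with cutadapt, with hg38 named as the build per the submitters' processing notes. Sources used here give no aligner, gene annotation, versions or strand setting. Counts of overlapping and antisense genes may therefore be mixed. The tables held 42141 genes, of which 42125 matched GENCODE 29, whose hg38 positions are printed. In 127 genes the deposited name had been altered, 76 of them by JNKKO standing for E3, and was restored.

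Expected counts were rounded to whole numbers, scaled with TMM factors and filtered with filterByExpr, which left 16911 genes. The main test was edgeR's quasi-likelihood F test with robust dispersion and 1 mean per group over the 18 libraries (common biological coefficient of variation 4.47%), with Benjamini-Hochberg adjustment over all genes tested and a threshold of 0.05. Standard errors were obtained from the log2 difference and the F statistic (absolute difference over root F). The joint treatment was set against control and against dimerizer alone in WT, and against control in JNKKO, and an interaction term compared the genotypes. Samples were grouped by title, and 1 library whose genotype tag goes against its title was kept and also left out. Libraries of the 6 groups held between 24243537 and 34499651 counts, and intervals on count ratios cover counting error only.

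Genes were named by rule: among called, non-overlapping genes of at least 5 CPM that kept their call without that library, the 10 largest rises and falls, the 8 opposite genes per direction with the largest value of the smaller of their 2 differences from control, the 8 not called with dimerizer alone per direction with the largest joint difference; and, with no such filter, up to 5 called members and up to 2 of either pattern from each of 31 lists. A fixed set of 16 genes was named throughout. The members and lists were chosen with earlier results of these data known. SMAD7, TGFBI, SNAI2, ZEB1, TOP2A and ID1 were added after their values were seen. Some genes that these rules name are not reported here. The alternatives were each library left out, the replicate number as a block, DESeq2, RLE scaling, no filter, WT libraries or the compared groups alone in the fit, mitochondrial genes left out, limma on log2(TPM + 1) and log2(TPM + 0.1), and pattern limits of 1.5-fold and 4-fold. Folds on the log2(TPM + pseudocount) scale understate changes of low genes. The main fit was also run on simulated data in which few genes changed. This cannot probe how the results depend on the scaling. The versions were R 4.3.3, edgeR 4.0.16, limma 3.58.1, DESeq2 1.42.0, Python 3.11.15, numpy 2.4.6, pandas 2.3.3, scipy 1.17.1 and matplotlib 3.10.9.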

Additional observations from a re-analysis of the deposited data

Results flagged for a closer look

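The joint response of 7 genes named above differed between the genotypes by the interaction term, given here as the WT minus the JNKKO log2 difference. For POSTN it was -3.1173, for SLC7A8 -1.5001 and for WIPF1 -1.1105, where both genotypes rose and JNKKO rose by more. For KRT15 it was 1.3466, for CALML3 2.9869 and for CA2 0.4122, where both genotypes fell and JNKKO fell by more. For CDH1 it was 1.4926, with a rise in WT and a fall in JNKKO. The interaction of CA2 missed the threshold in 11 other settings, for example at 0.2522 without jointly treated WT replicate 3 (edgeR adjusted p = 0.275) and 0.3933 with DESeq2 (DESeq2 adjusted p = 0.0597). That of WIPF1 was -0.2278 on log2(TPM + 1) (limma adjusted p = 0.122). The control acini of the genotypes differed in several of these genes, as the levels above show, and what part of an interaction that difference holds was not tested.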

How the results depend on the processing

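Of 4149 values of 221 named genes recomputed under other settings, 4094 kept their direction and their side of the threshold. Since 219 of these genes were called in the main fit, and most were picked by its values, such agreement was likely beforehand. The count also leaves out size, as for RYR2 at -1.46 in the main fit and -0.37 on log2(TPM + 1). Counts of genes moved by more than 1.5 times on the TPM scale and at other fold limits. With limma on log2(TPM + 1), 8346 genes were higher and 2381 lower, 203 were at least 2-fold lower, 36 were opposite and lower, and 336 higher and 55 lower genes were not called with dimerizer alone. On log2(TPM + 0.1) there were 8331 higher, 2380 lower, 514 at least 2-fold lower, 92 opposite lower and 206 lower genes not called with dimerizer alone. The median of all genes stood at 0.1736 and 0.2307 on these scales. At a limit of 1.5-fold the opposite genes were 293 higher and 428 lower and those not called with dimerizer alone 821 and 685, and at 4-fold they were 32 and 48, and 247 and 115.

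ERBB2 (log2 0.0133, not called) stood at -0.0255 with the WT libraries in the fit, -0.0021 with DESeq2, -0.0022 with RLE scaling, -0.0111 without mitochondrial genes and -0.0286 to 0.0556 with a library left out, and it was called higher on the TPM scale at 0.2427 with a pseudocount of 1. The HS3ST2 interaction, not called at -1.2136, was called at 0.5124 on log2(TPM + 1) (limma adjusted p = 0.0155). CA9 stayed at -2.1573 and -2.1170 without its call with WT libraries and with the 2 groups alone in the fit, and CDH11 and ITGAM lost their calls on log2(TPM + 1), DSP and RBL2 on both TPM scales, and DPT on both and without any 1 of 5 libraries; the cause was not tested. Replicate numbers gave correlations of 0.028, 0.043 and 0.047 between jointly treated and control libraries, so they were not taken as pairs, although each library correlated best with its own number. With the replicate block 10423 genes were called, and it ended no call of a named gene.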
